A study of Homo sapiens with 28 samples.

Results

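The response of chromatin to lenalidomide was followed in 3 human myeloma cell lines without a MAF family translocation, Karpas620, KMS27 and OPM2, each with 1 untreated and 1 lenalidomide library. These 6 libraries, of 28 in the series, were taken as the pairs of deposited columns that carry the names of these lines. Karpas620 and KMS27 are lines with t(11;14), which places CCND1 under control of the immunoglobulin heavy chain locus, and OPM2 is a line with t(4;14), which does so for NSD2 (WHSC1) and FGFR3. The translocations are background knowledge of the lines and are not part of the sample labels. Treated cells received 10 µM lenalidomide and were taken on day 3, whereas the label of the control cells gives no treatment and names no vehicle. The assay was ATAC-seq, where the Tn5 transposase inserts adapters into open chromatin. A further 3 lines of the series with a MAF family translocation (L363, MM1S and RPMI8226), treated in the same way, were used for comparison only.

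Lenalidomide binds cereblon, the substrate receptor of a CUL4 and DDB1 ubiquitin ligase, and directs that ligase to the zinc finger factors Ikaros (IKZF1) and Aiolos (IKZF3), which are then degraded. Myeloma cells depend on these factors, which bind enhancers of plasma cell genes and also hold other genes silent. The drug is known for a loss of IRF4 expression and for raised interferon-stimulated genes in sensitive myeloma cells.

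The count table held 154985 regions, of which the median was 420 bp wide, and the 6 libraries had between 1916890 and 2964712 counts in these regions. A peak had been called in at least 1 of the 6 libraries in 70185 regions and in all 6 in 11162 regions. Levels are given as CPM, counts scaled to a total of 1e+06 counts in regions, before any further scaling. Since 1 count was worth between 0.337 and 0.522 CPM, levels of a few CPM rest on few counts. Each line was assayed once per condition, so the spread behind the test of the response was that between the responses of 3 lines, and behind the tests of a difference in response that between 6 lines. Whether fewer cells or less open chromatin per cell lay behind a lower level cannot be told apart in bulk libraries. The lines were checked against markers of other cells. Regions at the starts of 7 of 10 plasma cell genes, among them IRF4, PRDM1, SDC1 and XBP1, had a peak in all 6 libraries, and the summed level of the 10 ran from 366 to 391 CPM in untreated and from 343 to 388 CPM in lenalidomide libraries. MZB1 and FKBP11 had a peak in 5 libraries each and SLAMF7 in 3. No peak at a start was found in any of the 6 libraries for 4 of 6 T and NK cell genes and 5 of 6 myeloid genes. Of the rest, CD247, a T cell receptor chain, had one in all 6 libraries at 21.9 to 67.4 CPM. CD3G had one in 1 library, and the myeloid gene SPI1 in 2 libraries, with up to 22.2 CPM. Of 5 mature B cell genes 4 had a peak in at least 1 library, such as PAX5 in 4 libraries at up to 37.6 CPM, and the list summed to between 17.2 and 56.9 CPM in untreated and between 17.6 and 46.2 CPM in lenalidomide libraries.

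In the 3 lines, many more regions were called raised than lowered after lenalidomide. Of 38911 regions with enough counts to test, 943 (2.42%) changed at a Benjamini-Hochberg adjusted p below 0.05 in edgeR's quasi-likelihood test with the cell line as a block, of which 784 (2.01%) were raised and 159 (0.409%) were lowered. The median fitted log2 fold change was 1.45 at raised and −1.15 at lowered regions, against −0.01 over all tested regions. Raised regions had a median of 5.50 CPM over the untreated lines and 16.5 CPM after lenalidomide, while lowered regions went from 20.7 to 9.19 CPM. All tested regions had medians of 9.55 and 9.64 CPM. Choosing regions by their change favours a low untreated level among raised and a high one among lowered regions. A region could also pass the count filter through the treated or the untreated libraries alone. The change exceeded 4-fold at 119 raised and 3 lowered regions. The direction was the same in all 3 lines at 706 raised and 143 lowered regions, which the test itself favours. Of all tested regions, 15.9% moved up and 16.8% moved down in all 3 lines, so the excess of rises holds for the called regions only. The number of calls depended on the settings. DESeq2 called 104 regions, all but 3 of them raised, and all 104 were among the 943. Of the 50 regions named by rule, DESeq2 gave 39 an adjusted p and called 10, among them those near ATXN1, PICALM, CD164, PJA2 and CAMTA1, and none of the lowered ones. Without OPM2, 466 regions were called, 428 raised and 38 lowered.

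**Figure D1:**
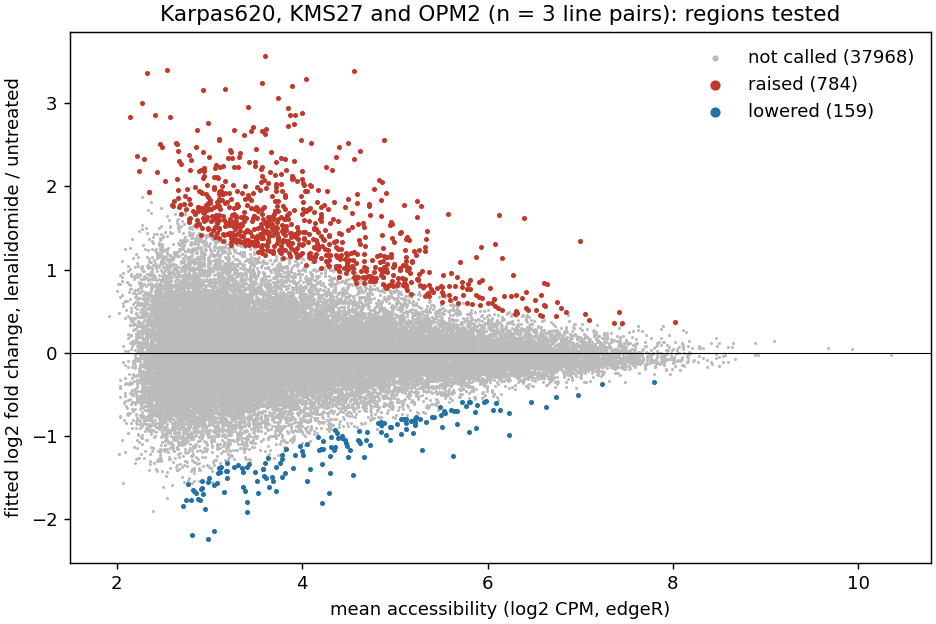
Fitted log2 fold change of each of the 38911 tested regions (vertical axis, lenalidomide against untreated in 3 line pairs) against its mean accessibility in log2 CPM (horizontal axis). The 784 raised regions (red) lie mostly at low accessibility and reach a log2 fold change of 3.56, whereas the 159 lowered regions (blue) reach −2.23.

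The changed regions lay away from gene starts more often than tested regions did. Within 1 kb of a protein-coding start lay 15.2% of raised and 5.66% of lowered regions, compared with 32.7% of all tested regions. Introns held 44.8% of raised and 52.2% of lowered regions, against 36% of all. Changed regions were scattered: the 784 raised regions formed 743 loci when neighbours within 50 kb were joined, and only 41 loci held more than 1 raised region. No lowered region had another one within 50 kb. The largest raised loci each held 2 called regions and lay beside DEPP1 (chr10:45470994-45474630), LGR6 (chr1:202210493-202217654), PICALM and EED (chr11:85834417-85863441), TNIP1 (chr5:150465213-150475332) and GDPD5 and SERPINH1 (chr11:75249585-75266015). At the TNIP1 locus, which encodes an inhibitor of NF-kB signalling, 2 of 4 tested regions were raised, with log2 fold changes of 2.11 and 2.33.

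The following windows, which reach 100 bases to each side of the centre of a region and are in GRCh37 on the plus strand, belong to 6 of the 20 largest changes and show the short motifs on which raised and lowered regions are compared further on. Capitals mark the Ikaros core TGGGAA or the RUNX core TGTGGT on either strand.
Near ATXN1 (raised), chr6:16636318-16636518: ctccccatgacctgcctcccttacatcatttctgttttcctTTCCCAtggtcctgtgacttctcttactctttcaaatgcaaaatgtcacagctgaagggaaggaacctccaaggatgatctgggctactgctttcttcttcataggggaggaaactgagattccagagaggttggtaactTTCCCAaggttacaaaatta
Near CAMTA1 (raised), chr1:7614908-7615108: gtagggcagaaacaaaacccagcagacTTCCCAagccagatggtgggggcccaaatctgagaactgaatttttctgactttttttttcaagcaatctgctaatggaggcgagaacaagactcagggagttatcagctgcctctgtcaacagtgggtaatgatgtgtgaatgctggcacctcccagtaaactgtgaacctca
Near NRP2 (raised), chr2:206579176-206579376: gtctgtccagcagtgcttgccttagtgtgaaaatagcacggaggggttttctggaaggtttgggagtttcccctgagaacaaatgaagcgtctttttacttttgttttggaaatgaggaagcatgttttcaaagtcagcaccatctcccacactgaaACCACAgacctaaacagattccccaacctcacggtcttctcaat
Near CD164 (raised), chr6:109625752-109625952: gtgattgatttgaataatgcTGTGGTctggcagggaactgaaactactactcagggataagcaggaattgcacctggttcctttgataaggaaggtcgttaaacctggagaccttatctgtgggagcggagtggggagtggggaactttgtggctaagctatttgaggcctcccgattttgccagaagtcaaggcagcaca
Near GAREM1 (lowered), chr18:30111238-30111438: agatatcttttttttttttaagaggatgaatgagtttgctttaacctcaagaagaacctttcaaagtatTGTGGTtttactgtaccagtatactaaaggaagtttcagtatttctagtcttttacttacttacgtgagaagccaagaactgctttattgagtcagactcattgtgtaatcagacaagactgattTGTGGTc
Near ARHGAP10 (lowered), chr4:148902503-148902703: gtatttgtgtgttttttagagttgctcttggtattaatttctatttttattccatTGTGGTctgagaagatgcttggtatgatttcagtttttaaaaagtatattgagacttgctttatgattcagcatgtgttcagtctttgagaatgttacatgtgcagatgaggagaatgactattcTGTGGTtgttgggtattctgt

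The 10 largest rises among regions that moved the same way in all 3 lines had log2 fold changes between 3.06 and 3.56. The largest lay in an intron of the pseudogene GTF2IP1 (chr7:74617421-74617913), where accessibility went from 3.82 to 19.2 CPM in Karpas620, from 0 to 7.18 in KMS27 and from 0 to 23.1 in OPM2. Its sequence matches 3 places in the genome at 95% identity or more, so reads of its copies cannot be told apart there, and DESeq2 did not call it (adjusted p = 0.293). The nearest protein-coding start, 77.7 kb away, belongs to SPDYE13, one of a multi-copy gene family.

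Within ATXN1, which encodes a chromatin-binding repressor, an intronic region (chr6:16635873-16636963) went from 0.694 to 4.30 CPM in Karpas620, from 3.04 to 44.1 in KMS27 and from 5.74 to 48.4 in OPM2. The levels of the lines overlapped between conditions, because treated Karpas620 stayed below untreated OPM2, yet every line moved up. The log2 fold change was 3.39 ± 0.33 (SE, edgeR adjusted p = 1.99e-11, n = 3 lines), the smallest p among the 10, and each line could be left out without losing the call.

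In NRP2, a receptor for semaphorins, an intronic region (chr2:206578960-206579593) went from 1.39 to 7.43, from 0.337 to 7.53 and from 0 to 5.43 CPM in Karpas620, KMS27 and OPM2, so the groups did not overlap. Regions near the clathrin adaptor gene PICALM (53.5 kb from its start), the sialomucin gene CD164 (76.7 kb) and the ubiquitin ligase gene PJA2 (135 kb), and within the flippase gene ATP10B and the transcription factor gene CAMTA1 were also among the 10. Near PICALM the 3 lines reached 5.09, 12.0 and 31.7 CPM from 2.08, 0.675 and 1.57. In CAMTA1 the rise was carried by Karpas620 (2.43 to 18.4 CPM) and OPM2 (4.17 to 35.7 CPM), while KMS27 went from 0 to 1.03 CPM, and the region had too few counts to be tested without OPM2.

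The 10 largest falls were smaller, with log2 fold changes between −1.77 and −2.23, and 5 of them were far higher in untreated OPM2 than in the other untreated lines. Near ZWINT, a kinetochore gene whose start lies 551 kb away, a region (chr10:58671570-58672345) went from 69.9 to 18.5 CPM in OPM2, from 4.38 to 1.03 in KMS27 and from 1.04 to 0.783 in Karpas620. An intergenic region 108 kb from RAB3GAP2 went from 26.1 to 4.07 CPM in OPM2, from 4.16 to 1.17 in Karpas620 and from 1.69 to 0.684 in KMS27. The fall of 2.23 ± 0.48 (SE, edgeR adjusted p = 0.00218, n = 3 lines) on the log2 scale was the largest, and the region could not be tested without OPM2 or without KMS27. DESeq2 called none of the largest falls to which it gave an adjusted p, with 0.338 near RAB3GAP2, 0.154 near ZWINT, 0.24 near GAREM1 and 0.559 near ZNF648.

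The falls spread more evenly over the lines at an intronic region of SMC6 (chr2:17931182-17931546), a subunit of the SMC5/6 chromosome complex. It went from 6.24 to 1.17 CPM in Karpas620, from 8.43 to 2.39 in KMS27 and from 6.78 to 2.71 in OPM2, so every treated library lay below every untreated one. Its log2 fold change was −1.77 ± 0.45 (SE, edgeR adjusted p = 0.0155, n = 3 lines). With Karpas620 left out the adjusted p was 0.103, and with KMS27 left out 0.102. A region 60.2 kb from GAREM1, an adaptor of growth factor receptor signalling, went from 4.86 to 1.96, from 22.3 to 5.81 and from 6.78 to 0.904 CPM in Karpas620, KMS27 and OPM2. The adjusted p at GAREM1 was 0.00153, and 0.111 without KMS27. The other 6 falls lay in or near OLFM4, ARHGAP10, CADPS, ZNF648, OSTN and PDZRN3. With each line left out in turn, OLFM4 could be tested only 1 time and ARHGAP10 and ZNF648 only 2 times each, and their calls were kept there. In Karpas620 the ARHGAP10 region had 1 count before and 0 after treatment. Calls were lost without OPM2 at CADPS (adjusted p = 0.183) and PDZRN3 (0.134), and without Karpas620 at OSTN (0.228) and PDZRN3 (0.0638). OSTN was also lost without KMS27 (0.0745).

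**Figure D2:**
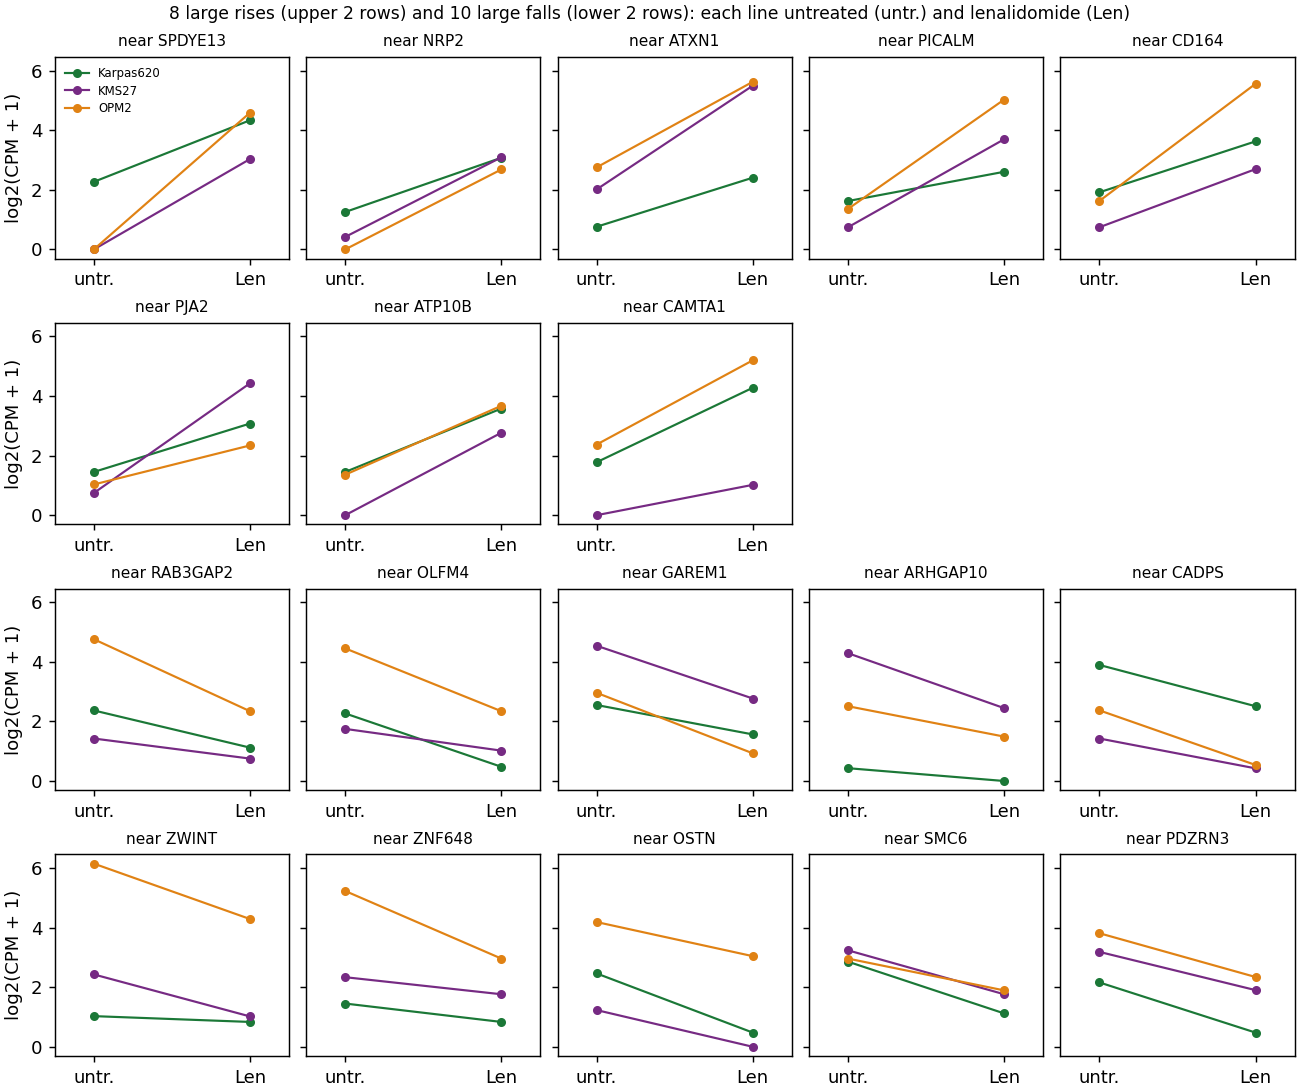
Accessibility as log2(CPM + 1) in each library (vertical axis), untreated (untr.) and after lenalidomide (Len), for 8 of the 10 largest rises and the 10 largest falls, titled by the nearest protein-coding gene. Each line joins the 2 libraries of 1 cell line: all lines slope up in the upper rows and down in the lower rows, and OPM2 is highest before treatment near RAB3GAP2, OLFM4, ZWINT, ZNF648, OSTN and PDZRN3.

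Of 12731 tested regions at gene starts, 119 were raised (0.935%) and 9 were lowered (0.0707%). The following starts were chosen after their values were seen. The largest rise was at CPNE2, which encodes a calcium-dependent membrane-binding protein, from 0.347 to 1.57 CPM in Karpas620, from 1.35 to 18.5 in KMS27 and from 6.26 to 26.2 in OPM2. At DEPP1, a gene induced by FOXO factors, the levels went from 0.694 to 12.1, from 0.337 to 4.10 and from 6.78 to 25.8 CPM. RGS3, a regulator of G protein signalling, PLEKHG6 and PGAP6 followed, with log2 fold changes of 2.43, 2.32 and 2.07. The 9 lowered starts had log2 fold changes between −0.35 and −1.45, the largest fall being at GALNT5. They included the lymphocyte genes LY9 (35.7 to 21.5, 23.6 to 10.3 and 32.3 to 17.6 CPM in Karpas620, KMS27 and OPM2) and IL10RA (8.67 to 5.09, 25.0 to 10.3 and 29.2 to 12.2 CPM). At KLF9, which encodes a zinc finger repressor, the level fell from 60.0 to 37.2, from 82.0 to 52.7 and from 76.2 to 40.2 CPM (log2 fold change −0.72 ± 0.14, edgeR adjusted p = 0.00073, n = 3 lines), and every treated library lay below every untreated one.

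Interferon-stimulated genes encode antiviral effectors and RNA sensors. Of 37 regions at the starts of 38 such genes, 5 were raised and none was lowered, and the median log2 fold change was 0.40 compared with −0.01 over all 12731 start regions. All 3 lines moved up at 19 of the 37 starts (51.4%) and down at 3, against 13.3% up and 16.8% down over all start regions. The medians within the lines were 0.24 in Karpas620, 0.30 in KMS27 and 0.46 in OPM2. Over the 65 tested regions nearest to these genes, 5 (7.69%) were raised, against 2.01% of all tested regions.

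The RNA sensor gene RIGI (DDX58) had the largest rise among the 5 (chr9:32525930-32526824). It went from 18.7 to 27.4 CPM in Karpas620, from 11.8 to 44.1 in KMS27 and from 14.6 to 44.8 in OPM2, so every treated library exceeded every untreated one. The log2 fold change was 1.36 ± 0.22 (SE, edgeR adjusted p = 3.08e-05, n = 3 lines), and the call held when any line was left out and in DESeq2. The start shared by PARP9 and DTX3L, partners in DNA damage and interferon responses, went from 21.2 to 39.9, from 5.06 to 12.3 and from 17.2 to 42.5 CPM, an increase of 1.15 ± 0.23 on the log2 scale (edgeR adjusted p = 0.000945, n = 3 lines) with overlapping groups. Its adjusted p was 0.0577 without OPM2. IFIH1, the second RNA sensor, went from 34.3 to 66.5, from 81.0 to 110 and from 35 to 52.4 CPM, and lost its call without Karpas620 (adjusted p = 0.103). RSAD2 and IFI6, an antiviral enzyme and a mitochondrial and membrane protein, rose by 1.03 and 0.91 on the log2 scale. Both calls were lost without OPM2, with adjusted p of 0.900 for RSAD2 and 0.594 for IFI6, and IFI6 also lost it without Karpas620 (0.0908) or KMS27 (0.0545). Other members stayed below the threshold, such as ISG15 (log2 fold change 0.62, adjusted p = 0.35) and OAS1 (0.62, adjusted p = 0.25).

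At the start of IFI6 the central window, which lies upstream of the transcription start, holds 3 matches to the interferon response element GAAANNGAA, shown in capitals as they read on the plus strand, whereas the gene is on the minus strand. This window held the most matches among the raised starts of the list, and its call was lost with any of the lines left out. The central window at IFIH1 held 1 match. Those at RIGI, at the start shared by PARP9 and DTX3L, and at RSAD2 held 0 exact matches. Looser forms of the element were not searched, so these windows are not shown to lack one. The letters at IFI6 therefore do not stand for the raised starts of the list, and a link between the element and the rises was not tested.
IFI6, chr1:27998788-27998988: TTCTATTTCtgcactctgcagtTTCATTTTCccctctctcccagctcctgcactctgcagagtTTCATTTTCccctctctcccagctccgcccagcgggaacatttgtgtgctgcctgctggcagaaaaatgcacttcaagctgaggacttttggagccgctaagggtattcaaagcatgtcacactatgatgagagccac

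Genes of presentation by MHC class I and II had a median log2 fold change of 0.28 at 20 start regions, but none of these was called. The log2 fold change was 0.15 at B2M, which encodes the light chain of class I molecules. Of the 56 tested regions near this list 1 (1.79%) was raised, a share below the 2.01% of all tested regions. It lay 22.7 kb from the start of CIITA, the master activator of MHC class II genes. That region went from 0.694 to 3.13 CPM in Karpas620, from 7.76 to 32.2 in KMS27 and from 11.5 to 16.7 in OPM2, and its adjusted p of 0.00535 became 0.523 without KMS27.

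B cell program genes, which plasma cells normally keep silent, had 4 raised and no lowered regions among 65 (6.15%, against 2.01% raised over all tested regions), with a median log2 fold change of 0.21 over those regions. They included the region near CIITA and 2 intronic regions of BACH2, a repressor that opposes plasma cell differentiation. The first of these (chr6:90928145-90929027) went from 17.7 to 45.8 CPM in Karpas620, from 0.675 to 8.89 in KMS27 and from 31.3 to 61.0 in OPM2. Its log2 fold change was 1.39 ± 0.24 (SE, edgeR adjusted p = 6.46e-05, n = 3 lines), and it was called without each of the lines and in DESeq2. The second (chr6:90885594-90886283) went from 2.08 to 10.2, from 0.675 to 2.05 and from 5.22 to 14.5 CPM, with an adjusted p of 0.00874 that became 0.164 without Karpas620. None of the 12 tested starts of this list was called.

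Plasma cell genes had few called regions. Among 132 regions near 21 genes, none was raised and 1 (0.758%) was lowered, against 2.01% and 0.409% of all tested regions. Counts this small do not set the list apart. The median log2 fold change was −0.08, and all 3 lines moved down at 32 regions and up at 14. Of 18 start regions, 6 (33.3%) moved down in all 3 lines and 1 moved up, against 16.8% and 13.3% of all start regions. The lowered region, 68.3 kb from the start of PRDM1, the repressor that defines plasma cells (chr6:106615153-106615810), went from 20.5 to 7.04 CPM in Karpas620, from 32.4 to 21.9 in KMS27 and from 31.3 to 18.1 in OPM2. The groups overlapped, and the adjusted p of 0.0227 became 0.304 without Karpas620 and 0.135 without OPM2. The start of IRF4, the survival factor of myeloma cells, had 31.6, 31.7 and 25.0 CPM before and 36.4, 31.1 and 34.8 CPM after treatment in Karpas620, KMS27 and OPM2, with an adjusted p of 0.73. The starts of CD38 and TNFRSF17 (BCMA), targets of antibody and cell therapies, were not called either, with log2 fold changes of −0.20 and 0.05.

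The ligase and its substrates had 1 raised and 1 lowered region among 37 (2.70% each, against 2.01% raised and 0.409% lowered over all tested regions), so the share raised was near that of all regions. The raised region overlapped an alternative start of IKZF1 (chr7:50348041-50348699) and went from 14.2 to 29.3 CPM in Karpas620, from 15.2 to 29.8 in KMS27 and from 24.5 to 30.7 in OPM2, every treated library lying above every untreated one. Its log2 fold change was 0.80 ± 0.22 (SE, edgeR adjusted p = 0.0271, n = 3 lines), with 0.295 without Karpas620 and 0.203 without KMS27. The tallest start region of IKZF1 had a log2 fold change of −0.23 and that of CRBN, which encodes cereblon, of −0.18, neither of them called. The start of ZNF692, a zinc finger substrate of the drug-bound ligase, fell from 128 to 91.2, from 234 to 207 and from 219 to 158 CPM (log2 fold change −0.35, adjusted p = 0.0327). That call was lost without Karpas620 (0.191) or OPM2 (0.497).

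Cell cycle genes had 5 raised regions and 1 lowered region among 55 (9.09% and 1.82%, against 2.01% and 0.409% over all tested regions), all of them outside starts, while the median log2 fold change of the list was near 0. In an intron of CDKN1A, which encodes the main CDK inhibitor induced by p53, a region 3.79 kb from the start (chr6:36650283-36651065) went from 10.8 to 45 CPM in Karpas620, from 20.9 to 51.3 in KMS27 and from 2.61 to 4.52 in OPM2. The log2 fold change was 1.57 ± 0.25 (SE, edgeR adjusted p = 1.37e-05, n = 3 lines), and it was called with each line left out and in DESeq2. Upstream of CDKN1A, 13.3 kb from its start, a second region went from 14.6 to 24.6, from 5.06 to 15.4 and from 1.57 to 4.97 CPM. Its adjusted p of 0.0256 rose to 0.0698, 0.337 and 0.0719 when Karpas620, KMS27 or OPM2 was left out. The start of CDKN1A itself had a log2 fold change of 0.11.

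CCND3, a D-type cyclin, had 2 raised intronic regions. The one 37.8 kb from the start went from 18 to 69.6 CPM in Karpas620, from 1.69 to 7.53 in KMS27 and from 2.61 to 6.33 in OPM2, and its adjusted p of 1.67e-05 became 0.0742 without Karpas620. The one 2.61 kb from the start went from 5.55 to 17.6, from 2.36 to 11.3 and from 4.17 to 10.4 CPM. It was called without each of the lines but not in DESeq2 (adjusted p = 0.167). Near CCND1, the gene moved by t(11;14), a region 1.72 kb from the start (chr11:69453726-69454204) went from 11.8 to 36.8 CPM in Karpas620 and from 7.76 to 12.7 in KMS27, and from 1.57 to 4.07 in OPM2. The adjusted p of 0.0109 became 0.565 without Karpas620, and the start of CCND1 was not called (log2 fold change 0.27). The lowered region lay in CDKN2B-AS1, 95.6 kb from CDKN2B, and fell mostly in OPM2, from 25.6 to 3.17 CPM. Its adjusted p was 0.0336, and 0.87 without OPM2.

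BCL2 family genes control apoptosis, and 1 of 72 regions was raised and 1 lowered (1.39% each). The share raised was below the 2.01% of all tested regions, of which 0.409% were lowered. A region 17.4 kb from PMAIP1, which encodes the death-promoting protein NOXA, went from 7.29 to 14.5 CPM in Karpas620, from 1.69 to 5.13 in KMS27 and from 12.5 to 33.0 in OPM2. Its call was lost without Karpas620 (adjusted p = 0.0543) or OPM2 (0.261). An intronic region of BCL2L11, which encodes the death-promoting protein BIM, went from 6.24 to 3.91, from 4.72 to 1.37 and from 27.6 to 5.43 CPM. Its adjusted p of 0.00647 became 0.625 without OPM2.

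Factors of the AP-1 and NF-kB groups had 3 of 59 regions (5.08%) and 2 of 56 regions (3.57%) raised, against 2.01% of all tested regions, and none lowered. At the start of BATF2, an interferon-inducible member of the BATF family, the level went from 1.04 to 6.26, from 2.70 to 10.9 and from 4.17 to 10.9 CPM, so the groups did not overlap (log2 fold change 1.90 ± 0.41, edgeR adjusted p = 0.00257, n = 3 lines, and 0.057 without KMS27). Regions 27.7 kb from BATF3 and 20.9 kb from BACH1 rose by 1.30 and 1.27 on the log2 scale. The BATF3 call was lost without KMS27 (0.625), the BACH1 call without KMS27 (0.0598) or OPM2 (0.163). A region 11.3 kb from NFKBIA, the inhibitor of canonical NF-kB, went from 2.43 to 3.91, from 4.05 to 19.8 and from 0.522 to 3.17 CPM. In an intron of BCL3, an atypical inhibitor family member, the levels went from 4.51 to 5.87, from 3.37 to 8.21 and from 3.13 to 18.5 CPM, with an adjusted p of 0.0253 that became 0.694 without OPM2 and 0.106 without KMS27.

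Adhesion genes had 4 of 57 regions raised (7.02%, against 2.01% of all tested regions). VCAM1, a ligand of the integrin VLA-4, had a raised region 65.8 kb away that went from 1.04 to 2.74, from 1.35 to 4.10 and from 5.74 to 37.5 CPM. The rise was largest in OPM2, without which the region had too few counts to be tested, and DESeq2 did not call it (adjusted p = 0.154). The start of ITGB7, an integrin subunit, went from 19.1 to 38.3, from 10.8 to 19.5 and from 25.6 to 36.6 CPM. Its adjusted p of 0.0208 rose to 0.324, 0.0602 and 0.0663 without Karpas620, KMS27 or OPM2. The ITGB2 start rose in KMS27 from 2.36 to 20.9 CPM and little in the other lines (5.20 to 8.22 and 2.61 to 3.17), with an adjusted p of 0.798 without KMS27, and a region 17.7 kb from ITGB1 rose by 1.74 on the log2 scale, with 0.572 without OPM2. Among RUNX, ETS and MEF2 factor genes, 1 of 99 regions (1.01%) was lowered and none raised, against 0.409% and 2.01% of all tested regions. The lowered region lay in an intron of RUNX2, went from 3.82 to 1.17, from 6.75 to 3.42 and from 26.6 to 6.33 CPM, and had an adjusted p of 0.556 without OPM2. Genes of the unfolded protein response, which secreting cells need, had no call among 56 regions (median log2 fold change −0.02), and housekeeping genes had none among 35 (−0.04). At the shares called over all tested regions, lists this short would hold few calls, so having none does not set these genes apart.

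**Figure D3:**
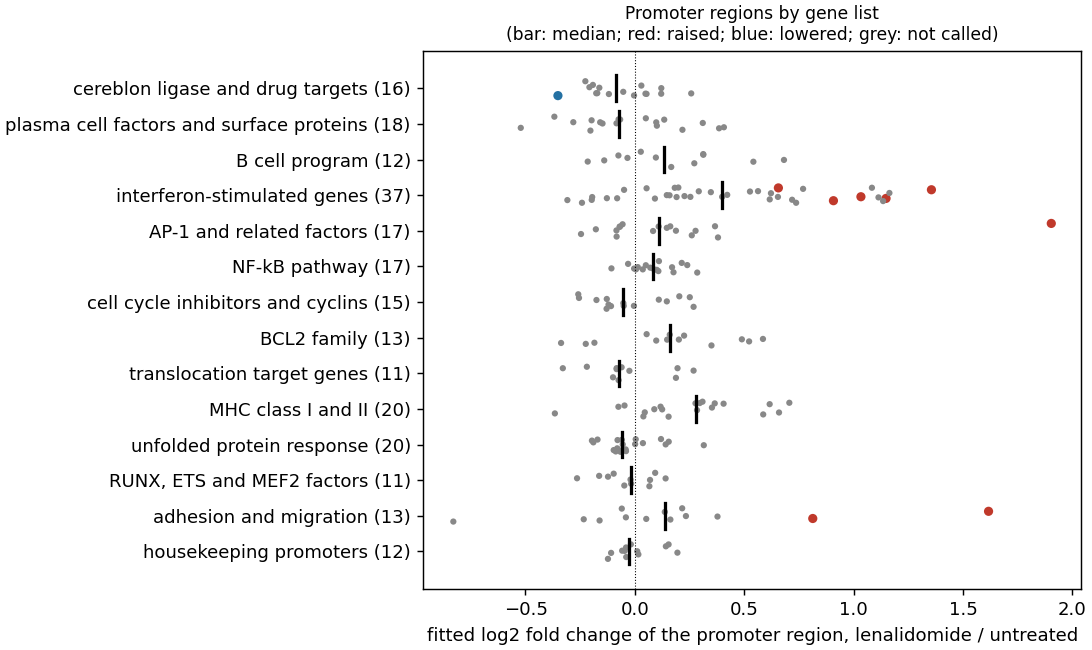
Fitted log2 fold change (horizontal axis) of the tested start region of each gene, by gene list, with the number of regions in parentheses; the bar is the median. Of these lists, which leave out the cell type markers, the interferon-stimulated genes have the rightmost median (0.40) and 5 raised starts, whereas the medians of the unfolded protein response and housekeeping lists lie at −0.06 and −0.03.

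One start of a gene of another cell type was raised. EPCAM, an epithelial adhesion gene, went from 2.08 to 0.783 CPM in Karpas620, from 2.70 to 8.55 in KMS27 and from 4.70 to 24.4 in OPM2, so the lines did not move together, and the call was lost without KMS27 (adjusted p = 0.142). COL1A1, a stromal collagen gene, had a peak at its start in all 6 libraries, at 8.87 to 45.4 CPM. The 5 stromal and epithelial genes summed to between 16.7 and 46.5 CPM in untreated and between 29.8 and 57.9 CPM in lenalidomide libraries, with 2 of 5 starts without any peak. Their part in other results was not tested.

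The 3 immunoglobulin loci hold strong enhancers that drive the translocated oncogenes. Over the 3′ side of the light chain locus IgL (chr22:23270656-23286227, 5 regions), Karpas620 had 99.6 CPM untreated (95% Wilson interval 88.7 to 112) and 105 CPM after lenalidomide (93.0 to 118). KMS27 went from 158 (144 to 172) to 145 CPM (132 to 160) and OPM2 from 97.0 (84.1 to 112) to 103 CPM (90.6 to 117). The intervals of each pair overlapped, and the mean log2 change was 0.02 ± 0.11 (SD, n = 3 lines). These intervals cover counting error only. Over the 3′ side of IgK (chr2:89131136-89145927, 4 regions) OPM2 was almost closed, at 4.17 CPM (2.11 to 8.24) untreated and 6.33 CPM (3.77 to 10.6) treated, while KMS27 had 94.1 (83.7 to 106) and 104 CPM (93.3 to 117) and Karpas620 36.1 (29.8 to 43.7) and 44.2 CPM (36.8 to 53.1). All 3 lines were higher after treatment, with a mean log2 change of 0.31 ± 0.18 (SD, n = 3 lines), with overlapping intervals in each. Over the IgH constant region (chr14:106023556-106328773, 48 regions) KMS27 went from 825 (793 to 858) to 695 CPM (666 to 726), with intervals that did not overlap, Karpas620 from 1230 to 1222 CPM and OPM2 from 339 to 336 CPM. None of the 4, 3 and 21 tested regions of these loci was called.

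The size of the response differed from line to line. At the raised regions the median change of CPM + 1 was 0.90 in Karpas620, 1.39 in KMS27 and 1.32 in OPM2 on the log2 scale, and at the lowered regions −0.85, −0.80 and −1.24. Over all tested regions, KMS27 had 2775 regions at least 2-fold higher and 681 at least 2-fold lower, OPM2 had 2295 and 2186, and Karpas620 had 1223 and 1464. Single pairs were not tested, since each holds 1 library per condition. Across the 38911 regions, which are not independent, the changes of 2 lines correlated with Pearson's r of 0.17 (Karpas620 and KMS27), 0.22 (Karpas620 and OPM2) and 0.24 (KMS27 and OPM2). Peak calls, made by the authors for each library, moved with the counts. Both come from the same libraries, so the choice of raised regions by their counts favours this and it is no separate support. At the raised regions OPM2 had a peak after treatment only in 42.5%, KMS27 in 36.4% and Karpas620 in 27.9%, compared with 8.38%, 9.88% and 6.60% of all tested regions. At most 3 raised regions in any line had a peak in the untreated library only.

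Whether OPM2 answered differently from the t(11;14) lines was tested by an interaction over the 12 libraries of treated lines. OPM2 is a single pair, so the spread in this test came from the other lines and that of OPM2 itself was not measured. No region of 64000 differed (0.0%) in edgeR's test, although 2609 had an unadjusted p below 0.05, and DESeq2 called none, with 651 below 0.05. The lowest adjusted p was 0.118, at an intronic region of MAPKAPK2 (chr1:206890367-206891125) with 1.39 and 2.74 CPM before and after in Karpas620, 15.2 and 62.6 in KMS27 and 82.4 and 58.8 in OPM2. With a single t(4;14) line, the translocation and the line cannot be told apart.

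The changed regions were open in other myeloma lines to differing extents. Among the 16 lines of the series that were not treated, 38.5% of raised regions had a peak in at most 3 lines, compared with 19.1% of all tested regions and 7.55% of lowered regions. A raised region was called in a median of 5 of the 16 lines, a lowered region in 11 and a tested region in 9. At 716 of the 784 raised regions (91.3%) at least 1 of these lines had a peak.

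The lines with MAF family translocations, which share no control with Karpas620, KMS27 and OPM2, moved the same way at most of these regions. Of the raised regions, 469 (59.8%) were higher after lenalidomide in all of L363, MM1S and RPMI8226, against 12.7% of all tested regions, and 8 were lower in all of them. Of the lowered regions, 94 (59.1%) were lower in all, against 16.3%, and none was higher in all. The median changes at raised regions were 1.05 in L363, 0.85 in MM1S and 0.31 in RPMI8226, and at lowered regions −0.51, −0.66 and −0.27. In a fit of these lines alone, 291 of 41255 regions were raised (0.705%) and 22 were lowered (0.0533%). Raised in both fits were 142 regions, 18.1% of the 784 and 48.8% of the 291, and lowered in both were 3, 1.89% of the 159 and 13.6% of the 22. The raised regions near RIGI, CCND3 (37.8 kb), BACH1, NFKBIA, CIITA, ATXN1 and PJA2 were among those raised in both, with log2 fold changes of 1.24, 1.12, 1.31, 1.75, 0.99, 1.65 and 2.04 in the MAF family lines.

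**Figure D4:**
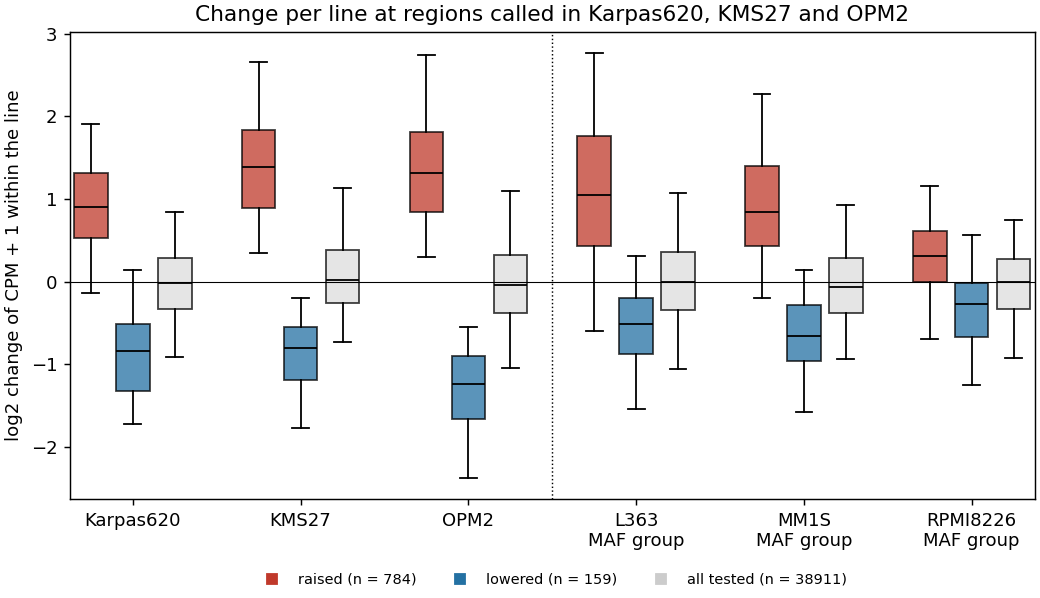
Log2 change of CPM + 1 after lenalidomide within each of 6 lines (vertical axis) at the 784 raised regions, the 159 lowered regions and all 38911 tested regions; boxes span the quartiles, the bar is the median and whiskers reach the 5th and 95th percentiles. The regions were called in Karpas620, KMS27 and OPM2, left of the dotted line, and in the MAF group lines on the right the median of raised regions lies between 0.31 and 1.05.

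A test of the difference in response between the groups of 3 lines called 1 of 64000 regions (0.00156%), and 1909 had an unadjusted p below 0.05. DESeq2 called none, with 445 below 0.05. The region (chr2:33141391-33141696) lies in an intron of LINC00486, 30.3 kb from LTBP1, and had the highest mean CPM of all regions over the 28 libraries. The search for copies did not cover this region, so whether reads of copies elsewhere add to its level was not tested. The region went from 939 to 980 CPM in Karpas620, from 953 to 928 in KMS27 and from 1226 to 1111 in OPM2, and from 1656 to 1011, from 898 to 718 and from 1066 to 630 CPM in L363, MM1S and RPMI8226. The response was higher by 0.50 ± 0.09 on the log2 scale (SE, edgeR adjusted p = 0.0363, n = 3 against 3 lines), and it was not called with any of Karpas620, KMS27, OPM2 or L363 left out. At the 784 raised regions the median difference was 0.43, in the direction that choosing them in these lines favours, and 99 of 781 had an unadjusted p below 0.05.

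The sequences under the changed regions were compared over the same central windows, for regions more than 1 kb from a start. The shares carry 95% Wilson intervals, which treat regions as independent. The Ikaros core TGGGAA was found in 24.8% of 665 raised regions (21.7 to 28.2), in 7.33% of 150 lowered regions (4.14 to 12.7) and in 16.1% of 26180 tested regions (15.7 to 16.6). Raised regions held it more often than tested regions in each of 6 bands of GC content, from 23.8% against 11.6% below 40% GC to 23.3% against 14.4% above 60% GC. Of the 10 largest rises, the regions in ATXN1 and CAMTA1, whose windows are printed, hold it, as does the window near ZNF648 among the 10 largest falls.

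The RUNX core TGTGGT was more frequent in both directions, at 39.2% of raised (35.6 to 43.0) and 31.3% of lowered regions (24.5 to 39.1) against 22.8% of tested ones (22.3 to 23.3). The NF-kB motif GGGANTTNC was found in 8.12% of raised, 1.33% of lowered and 4.13% of tested regions. The ETS-IRF composite GGAANNGAA occurred in 12.5%, 8.67% and 6.73%, the interferon response element GAAANNGAA in 16.2%, 19.3% and 12.7% and the AP-1 motif TGANTCA in 13.8%, 18% and 10.2%. The letters of the composite and of the response element can overlap in one match. The CTCF letters CNAGGNGGC went the other way, in 3.01% of raised and none of 150 lowered regions against 11.2% of tested ones. Lowered regions were poorer in GC, with a median of 42.3% against 49.3% for both raised and tested regions outside starts. The response element was itself more frequent at low GC, in 23.04% of tested regions below 40% GC and 2.81% above 60%. Lowered regions held it in 24.6% below 40% GC, and in 25.0% against 18.7% of tested regions from 40 to 45%. From 45 to 50% the shares were 12.0% and 13.7%, and from 50 to 55% they were 11.1% and 9.74%. Raised regions were below tested ones under 40% GC (17.5%) and above them in each higher band. Both strands were searched, and a match gives the letters only, not a bound site.

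**Figure D5:**
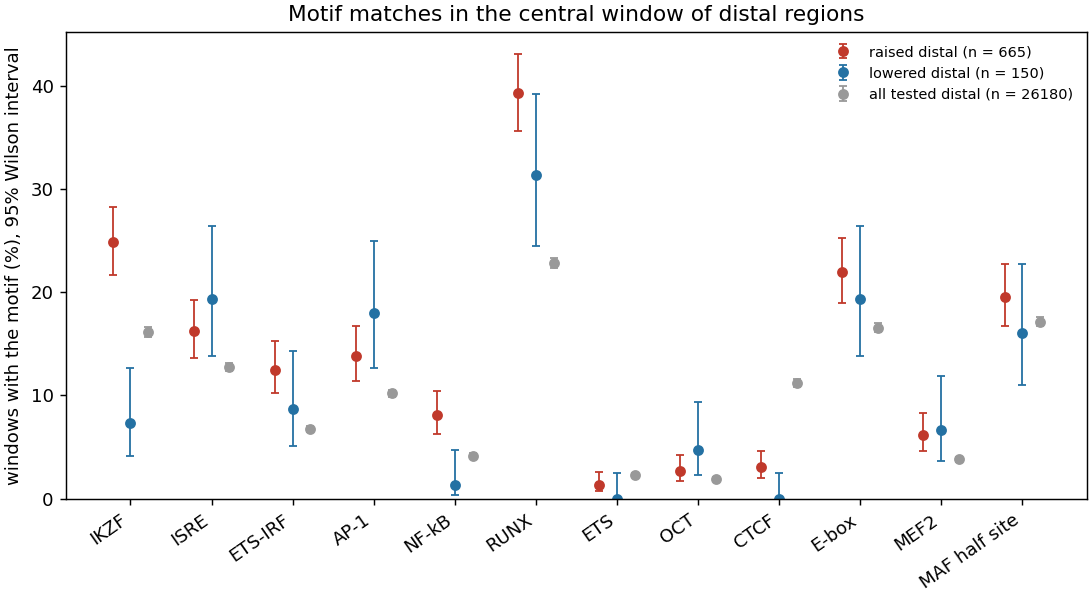
Share of distal regions (vertical axis, percent, with 95% Wilson intervals) whose central window holds each of 12 motifs on either strand, for 665 raised, 150 lowered and 26180 tested regions. The Ikaros core separates raised (24.8%) from lowered regions (7.33%), the RUNX core lies above the tested regions in both, and the CTCF letters lie below in both.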

How the data were processed

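ATAC-seq was available for 28 libraries of 22 cell lines, of which 6 lines had an untreated and a lenalidomide library. The authors deposited raw counts per region and, for each library, a table of peak calls that was read as the number of that library's own peaks in a region, which the files do not define. Per the submitters' processing notes, reads were handled with Bowtie2 2.2.6, SAMtools 1.7 and MACS2 2.1.0.20151222 (q of 0.01) on GRCh37. Duplicate removal, the Tn5 shift and whether reads or fragments were counted are not given in the sources used here. All columns could be mapped to a sample.

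From the counts, CPM was computed as counts scaled to a total of 1e+06 in regions. Regions were filtered by filterByExpr, scaled by TMM and tested with edgeR 4.0.16 (quasi-likelihood test, Benjamini-Hochberg over all tested regions, threshold 0.05) in R 4.3.3, with the cell line as a block, as the labels pair the libraries by line. Differences in response were tested as interactions over 12 libraries. DESeq2 1.42.0 and the other alternatives are given in the closing section. Changes within a line used log2(CPM + 1). Regions within 1 kb of a protein-coding start in GENCODE 44 lifted to GRCh37 were start regions, and others were assigned to the nearest gene within 100 kb. Named regions were the 10 largest rises and 10 largest falls among calls in the same direction in all 3 lines, and all called regions of the gene lists, with single starts for context. Copies were sought with BLAST 2.17.0 at 95% identity and 80% coverage. Members and lists were chosen with earlier results of these data known. Both tools were also run on simulated counts for the 3 line pairs (35295 regions). There edgeR recovered 44 of 100 regions changed 2-fold and 81 of 100 changed 4-fold, with 3 false calls. DESeq2 recovered 18 and 51 of them, with 0 false calls. Whether these rates hold for the real libraries, where the response differed from line to line, was not tested. A few items withheld from the text are not reported here.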

Additional observations from a re-analysis of the deposited data

Results flagged for a closer look

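Among the 6 lenalidomide libraries of the treated lines, that of RPMI8226 stood apart in depth, with 4248017 counts in regions. It entered the comparison with the MAF family lines only, and without RPMI8226 that comparison called 3 regions in place of 1. About 1 in 20 groups of this size would be singled out by chance.

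The response near LTBP1 differed between Karpas620, KMS27 and OPM2 and the MAF family lines by 0.50 on the log2 scale, by a test of the difference itself. The region had the highest mean CPM over the 28 libraries, and the search for copies did not cover it. DESeq2 did not call it, and edgeR lost the call with Karpas620, KMS27, OPM2 or L363 left out.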

How the results depend on the processing

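The count of changed regions (943, of which 784 raised and 159 lowered) stayed within 1.5 times with library totals, DESeq2 size factors, equal depth within pairs or all 12 libraries in the fit. DESeq2 called 104 regions (101 raised, 3 lowered), no filter on low counts gave 1678 (1487 raised), and a minimum of 10 counts in each library gave 378 (306 raised, 72 lowered). Trended offsets gave 272 lowered regions. With no replicate block, that is without pairing the libraries by line, edgeR called 0 regions, with 164 at an unadjusted p below 0.05. Leaving out each line gave between 466 and 1005 changed regions, between 428 and 858 raised and between 38 and 208 lowered, the lowest without OPM2. Of the 943 regions, 550 were also called without Karpas620, 415 without KMS27, 326 without OPM2 and 587 in the fit of 12 libraries. Calls shared with an alternative all had the same direction. The difference from the MAF family lines, 1 region, became 0 with trended offsets, DESeq2, no filter, a minimum of 10 counts or no replicate block, and ranged from 0 to 3 with lines left out. Taking only the tallest region moved the mean log2 change to −0.14 at IgL, 0.58 at IgK and 0.25 at IgH. Over whole regions in place of the central windows, and with start regions included, the Ikaros core was found in 63.9% of raised and 30.2% of lowered regions (25.0% and 6.92% in the windows), the RUNX core in 64.9% and 59.7% (34.6% and 32.1%) and the NF-kB motif in 20.8% and 6.92% (8.04% and 1.26%). The causes were not tested. Of 50 named regions, 21 kept their call in every leave-out that tested them, 11 of them in all 3, and 10 of the 39 with an adjusted p in DESeq2 were called there. Regions of a few CPM rest on few counts, and lines serve as the only replicates.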
